A study of Mus musculus with 2 samples.

Results

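Cycling macrophages are here the nuclei of an injured leg muscle that carried leukocyte transcripts and transcripts of dividing cells together. A barcode was a member when it held 2000 or more unique molecular identifiers (UMIs, 1 per captured RNA molecule) with at most 5% of them mitochondrial, at least 4 UMIs of Ptprc, Dock2, Arhgap15, Myo1f and Ly86 together, and at least 3 UMIs of Top2a, Mki67, Kif11, Knl1 and Kif15 together. It could hold at most 1 UMI of Pax7 and Pdgfra, and under 1% of its UMIs could come from Ttn, Neb, Trdn and Dmd. This gave 946 nuclei in the AHRfl/fl-labelled library and 560 in the AHRmKO-labelled library, 1506 of the 23616 nuclei that passed the UMI and mitochondrial limits.

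Both libraries hold nuclei of the tibialis anterior, a muscle of the lower leg, from male mice of 16 to 20 weeks. All had chronic kidney disease, and the femoral artery had been ligated 5 days earlier to cut the leg's blood flow. The labels give both libraries the same strain text, mice with a floxed Ahr allele (AHRtm3.1Bra/J) that were bred to the line Tg(ACTA1-cre/Esr1*)2Kesr/J, whose inducible Cre recombinase is under a skeletal actin promoter, and name 1 library AHRfl/fl and the other AHRmKO. Nuclei were prepared with a 10x Genomics nuclei kit and Chromium Next GEM 3′ HT chemistry. The skeletal actin promoter is active in muscle fibres, so macrophages are not the cells in which the Cre is meant to act. How many animals each library pools is not given. With 1 library a group there is no replicate and no test, and all intervals given are 95% intervals that cover counting error only.

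Macrophages enter an ischaemic muscle as blood monocytes or are already resident, clear dead fibres, and then support regeneration, and some of them divide within the tissue. A dividing cell first loads replication origins and copies its DNA, with genes driven by transcription factors of the E2F family, and then condenses and separates its chromosomes, with genes that B-MYB and FOXM1 drive and the DREAM complex represses outside the cycle. E2F factors bind the sequence motif of the same name, while promoters of mitotic genes often carry a cell cycle genes homology region (CHR) and CCAAT boxes.

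The promoters of 4 genes are shown because cell cycle genes are what sets these nuclei apart: the rule genes Top2a (topoisomerase II alpha, which untangles DNA) and Kif11 (the spindle kinesin Eg5), Rad51b (a gene of DNA repair by homologous recombination), which had the most UMIs of all cell cycle list genes in members of both libraries together, and Pola1 (the catalytic subunit of DNA polymerase alpha), chosen after its motifs were seen. Each runs from 250 bases before to 50 after the RefSeq start on GRCm38.p6, 5′ to 3′ on the gene's strand. Capitals mark matches on either strand to the E2F motif (written as TTGGCGC, with the variants TTCCCGC, then TTCGCGC and also TTGCCGC), to the CHR motif (TTTGAA) or to the CCAAT box.
Pola1, chrX:93632106-93632405, minus strand: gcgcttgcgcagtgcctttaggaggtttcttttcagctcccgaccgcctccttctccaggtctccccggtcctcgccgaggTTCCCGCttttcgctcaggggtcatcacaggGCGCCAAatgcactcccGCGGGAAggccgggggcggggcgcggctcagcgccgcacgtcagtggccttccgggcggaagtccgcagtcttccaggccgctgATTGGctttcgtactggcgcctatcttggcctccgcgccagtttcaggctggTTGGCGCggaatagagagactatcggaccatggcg
Top2a, chr11:99024140-99024439, minus strand: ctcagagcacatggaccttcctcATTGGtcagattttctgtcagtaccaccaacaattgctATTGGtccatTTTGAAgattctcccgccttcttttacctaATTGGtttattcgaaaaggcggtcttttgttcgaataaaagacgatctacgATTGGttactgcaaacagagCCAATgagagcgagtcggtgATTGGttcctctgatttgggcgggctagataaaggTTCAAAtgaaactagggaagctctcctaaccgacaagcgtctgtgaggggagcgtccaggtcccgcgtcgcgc
Kif11, chr19:37376132-37376431, plus strand: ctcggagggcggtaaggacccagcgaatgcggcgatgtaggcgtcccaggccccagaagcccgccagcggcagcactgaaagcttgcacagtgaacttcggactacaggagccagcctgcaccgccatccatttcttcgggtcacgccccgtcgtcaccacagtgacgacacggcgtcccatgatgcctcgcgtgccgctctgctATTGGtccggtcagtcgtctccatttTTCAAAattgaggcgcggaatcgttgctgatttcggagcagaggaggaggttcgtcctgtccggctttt
Rad51b, chr12:79297032-79297331, plus strand: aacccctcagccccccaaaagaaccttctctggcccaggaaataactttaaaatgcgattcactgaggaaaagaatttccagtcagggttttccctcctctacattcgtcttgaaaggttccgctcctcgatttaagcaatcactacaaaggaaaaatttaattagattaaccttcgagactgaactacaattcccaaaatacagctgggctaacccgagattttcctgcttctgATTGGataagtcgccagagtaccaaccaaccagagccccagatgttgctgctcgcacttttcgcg

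Pola1 held 4 E2F matches and 1 CCAAT, Top2a 2 CHR and 6 CCAAT matches, and Kif11 1 of each. Rad51b held 1 CCAAT match, and the window of its other RefSeq start, chr12:79297101-79297400, also 1 CHR match. Over all 32851 promoters of the same length, 9.57% held an E2F, 17.9% a CHR and 37.4% a CCAAT match. Over the 7267 promoters of genes compared in both libraries, the shares were 17.1%, 12.2% and 36.8%. E2F matches stood in 68.8% of the 16 promoters of origin licensing genes and 65.5% of the 29 of DNA synthesis genes, against 24.1% of the 29 of spindle and cytokinesis genes and 7.69% of the 13 of macrophage identity genes. CHR matches stood in 72.4% of spindle and cytokinesis promoters, 37.5% of origin licensing, 15.4% of macrophage identity and 6.90% of DNA synthesis promoters. Promoters of mitotic kinase and kinetochore genes held CHR matches in 44.4% and 43.5%, close to the origin licensing share, and E2F matches in 11.1% and 17.4%. Promoters of repair genes held E2F matches in 47.1% and CHR matches in 17.6%. A match is a description of the letters and not a bound site.

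The libraries held 151788328 and 113737134 UMIs and differed in ways that reach these nuclei. Barcodes of 200 to under 500 UMIs numbered 79956 in the AHRfl/fl-labelled library and 138289 in the other. They are taken here as droplets with free RNA and no nucleus, which was not checked. In members, the median was 4246 UMIs (2001 to 37715) in the AHRfl/fl-labelled library and 4536 (2003 to 35303) in the other, with 0.750% and 1.73% mitochondrial UMIs. The highest doublet scores of Scrublet fell on 8.14% of the members in the AHRfl/fl-labelled library and 1.25% in the other, against 2.03% and 0.525% of non-cycling leukocyte nuclei and 6.79% and 2.65% of all nuclei. The shares of all nuclei were fixed beforehand by the number of nuclei in each library. The difference between the libraries in these shares is thus not a measure of their doublets. No member barcode was shared between the libraries.

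The label was set beside genes that the rule did not use. Of 20 macrophage identity genes, all had UMIs in members of both libraries. After each nucleus had been thinned to 2000 UMIs, 98.5% and 97.3% of members held 3 or more UMIs of the list, in the AHRfl/fl-labelled library and the other, against 53.6% and 2.81% of cycling satellite nuclei, which should lack these genes. The first of these background shares is high, and the list also stood at 11642 counts per 1000000 UMIs (CPM) in the free RNA of that library, against 1887 CPM in the other. Mertk, a receptor for dead cells, had a UMI in 91.0% and 93.4% of members and in 17.3% and 15.6% of cycling satellite nuclei. Csf1r, the receptor for macrophage colony stimulating factor, had one in 70.1% and 74.1% of members and in 18.5% and 6.56% of cycling satellite nuclei. For most members these values go with the label. The satellite nuclei were chosen with at most 1 UMI of the rule's leukocyte genes, so the gap to them is in part set by the selection. It does not tell macrophages from other leukocytes.

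The thresholds of the rule cut a continuum. In the AHRfl/fl-labelled library, the 440 leukocyte nuclei with 2 UMIs of the cycling genes held 1183 CPM of the mitosis genes (4 lists: kinases, kinetochore, spindle, anaphase promoting complex), the 137 with 3 UMIs 1993 CPM, and the 490 with 10 or more 10004 CPM. In the other library, the same classes held 1136 (142 nuclei), 1534 (66) and 13571 CPM (371). Few nuclei lay at the leukocyte threshold, 16 and 13 with 3 UMIs just outside it and 16 and 16 with 4 UMIs just inside.

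Members made up 13.5% (12.7 to 14.3) of the 7006 leukocyte nuclei of the AHRfl/fl-labelled library and 27.4% (25.4 to 29.3) of the 2047 of the AHRmKO-labelled library. Thinned to 2000 UMIs before the rule was applied, these shares were 9.89% (9.21 to 10.6) and 19.8% (18.1 to 21.7). Among nuclei with 3000 or more UMIs they were 21.7% and 34.5%. The counting intervals did not overlap, but they cover counting error within each library only. Without replicates, variation between animals or between libraries of the same label was not tested. The order of the libraries was the same for satellite cells and myoblasts, the muscle stem cells and their progeny. Of these, 31.1% and 57.9% passed the same cycling threshold (22.0% and 48.0% thinned). The higher share was thus seen in both cell types of the AHRmKO-labelled library. Leukocytes themselves were 41.2% and 30.9% of all nuclei, and members 5.57% and 8.45%. Of the 19056 and 9015 barcodes with 2000 or more UMIs, 16986 and 6630 met the mitochondrial limit. A larger share was thus left out in the AHRmKO-labelled library. The libraries also differed in free RNA, mitochondrial share and the number of nuclei, and the part of these differences in the cycling shares was not tested.

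**Figure D1:**
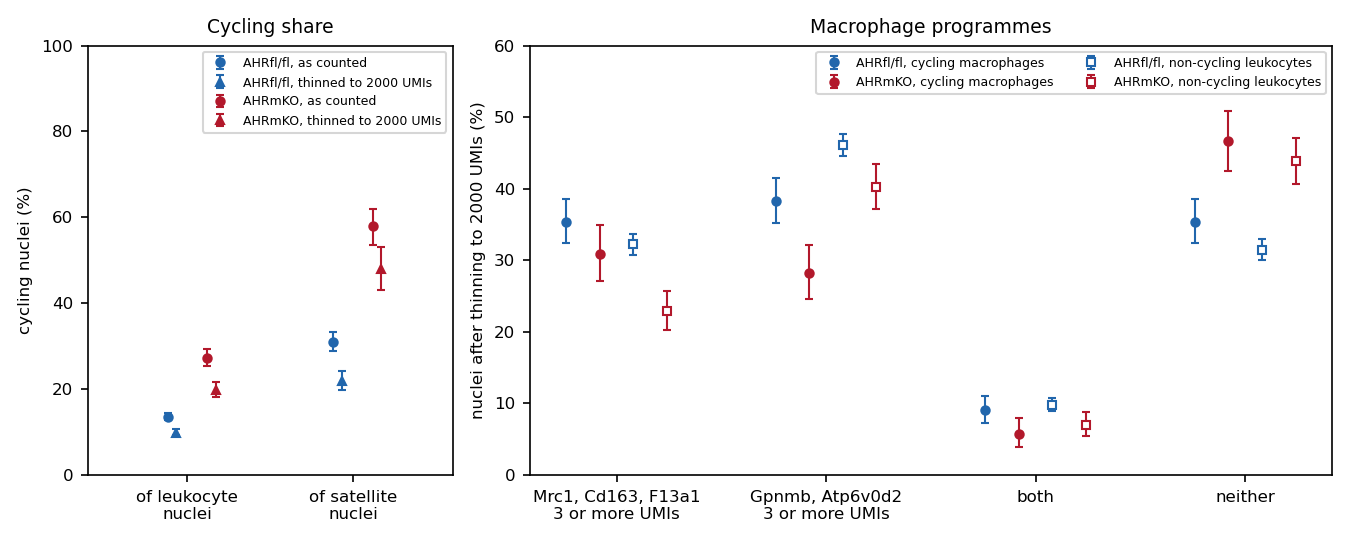
Percent of nuclei with exact Clopper-Pearson intervals: left, the cycling share of leukocyte and of satellite nuclei, as counted and thinned to 2000 UMIs; right, the thinned share of cycling macrophages and non-cycling leukocyte nuclei with 3 or more UMIs of Mrc1, Cd163 and F13a1, of Gpnmb and Atp6v0d2, of both or of neither. The cycling share is higher in the AHRmKO-labelled library for both cell types (27.4% against 13.5% of leukocyte nuclei).

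Ahr, the gene the study deletes in fibres (chromosome 12, 35497974 to 35535038, minus strand), had 105 UMIs in members of the AHRfl/fl-labelled library, 20.6 CPM (16.8 to 24.9). In the other it had 78 UMIs, 21.7 CPM (17.1 to 27.0). The log2 ratio of 0.07 had an interval of -0.37 to 0.51. A 3′ count does not show whether the floxed exon was removed, so these values do not check the labels. Non-cycling leukocyte nuclei, described below, held 32.3 and 44.4 CPM of Ahr, log2 ratios of members over these of -0.64 and -1.02.

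Members were then set against non-cycling leukocyte nuclei, which met the same rule with 0 UMIs of the 5 cycling genes (4045 and 953 nuclei, median 2825 and 3144 UMIs). UMIs were summed over nuclei, and a gene was compared when it reached 20 CPM in the higher sum and 30 UMIs over both. It is called different here when the ratio was 2-fold or more and its counting interval did not include 1. Of 6898 genes compared in both libraries, 301 (4.36%) were higher in members in both and 3 (0.0435%) lower in both, and the rule's 5 cycling genes are among the 301. In the AHRfl/fl-labelled library alone 4.82% were higher and 0.0859% lower, and in the other 6.22% and 0.452%. Since the members were chosen on cycling genes, the cell cycle values below describe them and test nothing.

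The cell cycle genes of 10 lists made up 129 of these 301 genes, 42.9%, and none of the 153 list genes compared in both libraries was lower in both. For scale, the median log2 ratio of all compared genes was 0.01 in the AHRfl/fl-labelled library and 0.00 in the other.

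Replication genes stood 2.81 to 5.29 times as high in members. Origin licensing genes, which mark and open the sites where replication starts, summed to 576 CPM (555.5 to 597) against 204 in non-cycling nuclei of the AHRfl/fl-labelled library, and to 835 CPM (805 to 865) against 193 in the other. Of 10 of these genes compared in both libraries, 7 were higher in both. Mcm10, which activates the replicative helicase, was at 51.4 and 64.4 CPM in members and 4.08 and 4.82 CPM in non-cycling nuclei. Cdt1, which helps to load the helicase, was not called, with log2 ratios of 0.80 and 0.70. DNA synthesis genes summed to 1762 and 2829 CPM against 583 and 740.5, with 14 of 20 higher in both. Pola1 was at 366 and 527 CPM against 74.6 and 105 CPM, and Atad2, a chromatin ATPase, at 307 and 625 against 70.3 and 143. Pcna, the sliding clamp of the polymerases, and Rrm2, a subunit of ribonucleotide reductase, were called in the AHRmKO-labelled library only, where their non-cycling levels were 11.9 and 2.54 CPM against 31.3 and 18.1 CPM in the other library. Repair genes that act at replication forks summed to 2084 and 3175 CPM against 480 and 599.5, with 15 of 17 higher in both. Rad51b was at 848 and 1119.7 CPM against 232.5 and 254 CPM, and Fancd2 of the Fanconi pathway at 58.5 and 91.6 against 3.27 and 4.31 CPM.

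The transcription factors of the cycle followed, with 9 of 11 higher in both libraries and a summed level of 735 and 989.5 CPM against 310.4 and 358. The repressor E2f7 was at 57.3 and 87.5 CPM against 2.53 and 2.79 CPM, and Foxm1, a driver of mitotic genes, at 37.7 and 56.9 against 2.82 and 2.03 CPM. Lin54, a DNA-binding subunit of DREAM, was at 121 and 178 against 38.5 and 57.6 CPM. The activator E2f1 had log2 ratios of 1.01 and 1.46. E2f3 and Tfdp1, the partner of E2F factors, were the 2 genes not called, at 0.42 and 0.41 and at 0.93 and 0.96.

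Cyclins and their kinases split. The list's sum was the same in members and non-cycling nuclei (2043 against 2039 CPM, and 2115 against 2075), although 11 of 14 genes were higher in both libraries. Ccnd3, a D-type cyclin that acts in early G1, accounts for much of that sum and was at 994.6 and 799.5 CPM in members against 1552 and 1577 CPM in non-cycling nuclei, log2 ratios of -0.64 and -0.98 that do not reach 2-fold. Ccnd1, another D-type cyclin, was at 32.4 and 13.3 against 17.1 and 6.09 CPM, log2 ratios of 0.90 (0.62 to 1.22) and 1.07 (0.40 to 1.90), the second under the level at which genes were compared. Cdk6, a partner kinase of these cyclins, was at 341 and 329 against 272 and 257 CPM. By contrast, the mitotic Cdk1 was at 53.4 and 61.4 CPM against 13.6 and 5.83 CPM, Ccna2 at 26.3 and 25.8 against 6.39 and 2.28 CPM, and Cdc25c, which activates Cdk1, at 31.6 and 38.0 against 1.41 and 0.761 CPM. Myc was at 8.63 and 5.28 CPM in members against 4.98 and 3.80 CPM, with log2 ratios of 0.74 (0.21 to 1.36) and 0.42 (-0.58 to 1.55), under the level at which genes were compared.

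Genes that hold the cycle back were at the same summed level in members (999.9 and 799.5 CPM) as in non-cycling nuclei (1000.3 and 779 CPM). Of 9 compared in both libraries, 1 was higher in both: Cdkn2c, which encodes the CDK4 and CDK6 inhibitor p18, at 31.0 and 34.2 against 6.61 and 5.83 CPM. Rb1, the retinoblastoma protein, was at 373 and 315 against 352 and 288 CPM. Cdkn1b, which encodes p27, was at 63.6 and 88.9 against 51.9 and 80.9 CPM.

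The sums of mitotic kinase, spindle and kinetochore genes differed most of the 10 cell cycle lists. Mitotic kinases stood 8.64 and 18.4 times as high in members, with 10 of 10 genes higher in both libraries, spindle and cytokinesis genes 11.3 and 16.2 times with 29 of 29, and kinetochore genes 7.72 and 9.91 times with 22 of 23. Ttk, the spindle checkpoint kinase Mps1, was at 84.9 and 101 CPM against 2.90 and 1.27 CPM. Kif14, a kinesin of cytokinesis, was at 91.6 and 126 CPM against 2.45 and 1.78 CPM. Diaph3, a formin that builds actin filaments, was at 539.7 and 677 CPM against 38.6 and 44.4 CPM, and the kinetochore gene Cenpe at 253 and 476 against 23.0 and 24.1 CPM. Bub3, a checkpoint protein, was the kinetochore gene not called, with log2 ratios of 0.87 and 0.63. Chromosome condensation genes differed less as sums, 3.10 and 4.08 times with 10 of 14 higher in both, and Smc4 of condensin was at 380.0 and 611 against 80.9 and 94.1 CPM. The anaphase promoting complex and its regulators stood 2.07 and 2.45 times as high, with 2 of 5 genes higher in both libraries.

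**Figure D2:**
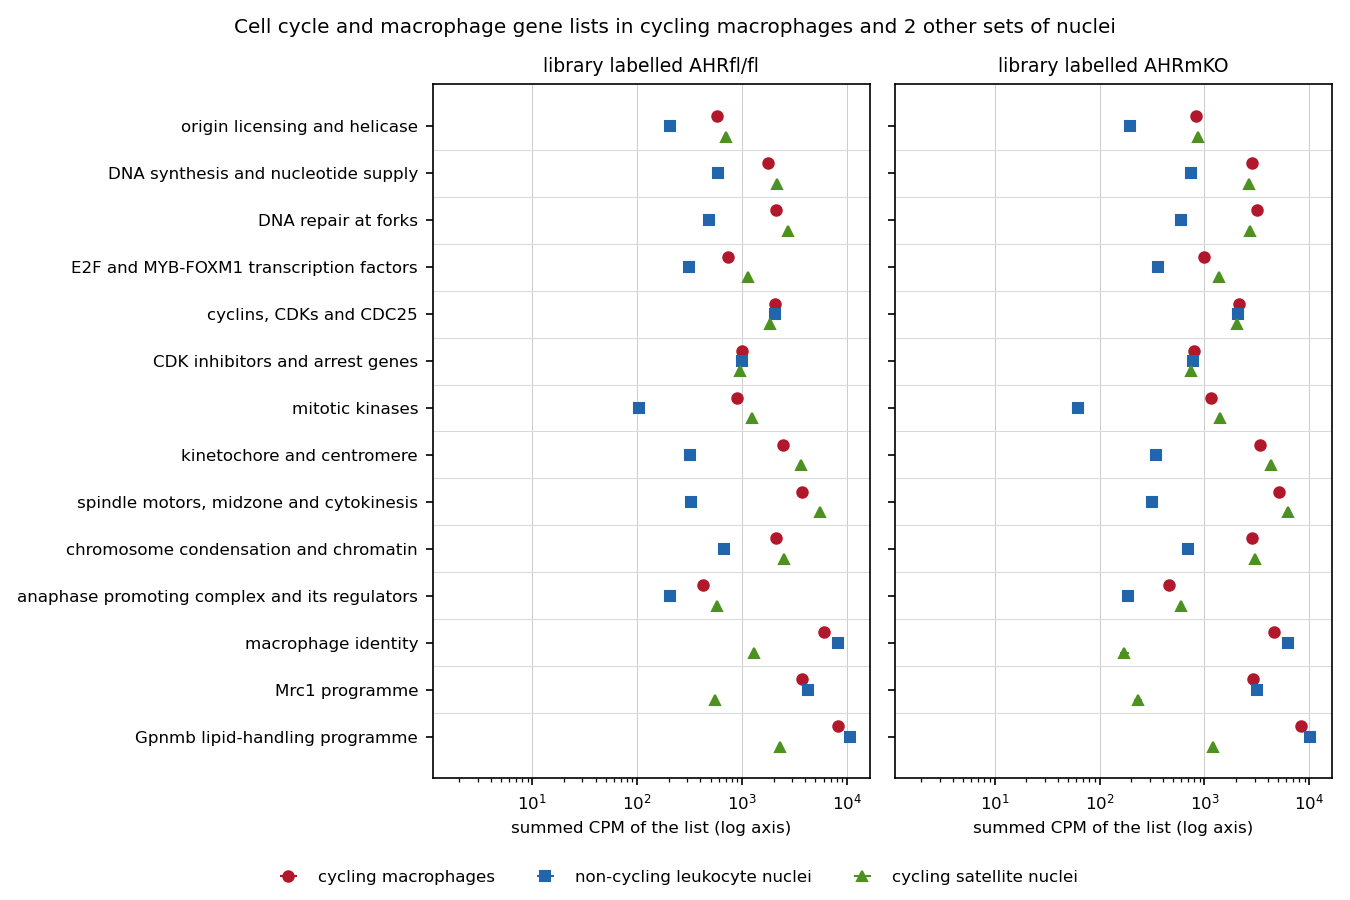
Summed CPM of each gene list on a log axis, with exact Poisson intervals that are mostly smaller than the symbols, for the AHRfl/fl-labelled library (left) and AHRmKO (right). Cell cycle lists of members lie near those of cycling satellite nuclei, while macrophage lists lie near those of non-cycling leukocyte nuclei, except that cyclins and CDK inhibitors are at similar levels in all 3 sets.

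Outside the rule genes, the highest ratios among the named genes called in both libraries belonged to Neil3, a DNA glycosylase (chromosome 8, 53586867 to 53639065, minus strand). It was at 293 and 460.2 CPM in members and 4.98 and 7.35 CPM in non-cycling nuclei, and 61.6% and 65.2% of members held a UMI of it, against 1.53% and 2.94% of non-cycling nuclei. Its log2 ratios were 5.75 (5.53 to 6.26) and 5.87 (5.44 to 6.55). Lockd, a long noncoding RNA next to Cdkn1b (chromosome 6, 134929092 to 134956798, plus strand), was at 305 and 223 CPM against 8.17 and 5.07 CPM. Cdca2, which brings a phosphatase to chromatin, was at 138 and 209 CPM against 3.42 and 5.33 CPM. The remaining genes that ranked highest were Depdc1b, Ankle1 (a nuclease), Kif14, Esco2 (which acetylates cohesin), Prr11, Kif4 (a chromokinesin), Ttk, Depdc1a and Ckap2l, with log2 ratios of 4.41 to 5.20 in the AHRfl/fl-labelled library and 4.62 to 5.84 in the other.

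Only Mmp12, Kynu and Tcp11l2 were lower in members in both libraries, and the number of such genes ranged from 3 to 18 over the alternative settings. Mmp12, the macrophage elastase (chromosome 9, 7344381 to 7369499, plus strand), was at 16.9 CPM in members against 42.2 CPM in the AHRfl/fl-labelled library, and at 2.22 CPM (8 UMIs) against 63.1 CPM in the other. It was held by few nuclei, 5.29% and 0.893% of members and 4.55% and 1.36% of non-cycling nuclei. Kynu, the kynureninase of tryptophan breakdown, was at 37.9 and 25.3 CPM against 82.8 and 65.4 CPM. Tcp11l2 was at 34.9 and 38.6 against 73.8 and 95.6 CPM.

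**Figure D3:**
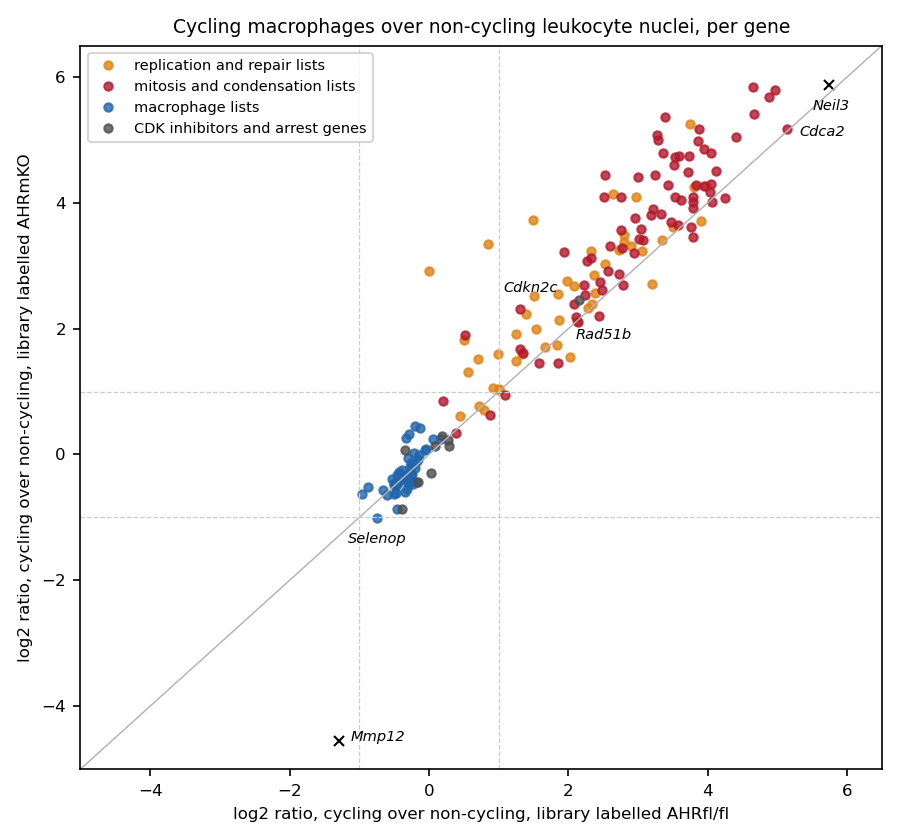
Each point is a gene, with the log2 ratio of cycling macrophages over non-cycling leukocyte nuclei in the AHRfl/fl-labelled library on the x axis and in the AHRmKO-labelled library on the y axis; dashed lines mark a 2-fold ratio. Replication and mitosis genes lie mostly above the 2-fold lines, for example Cdca2 (5.14 and 5.17), while macrophage genes lie from -0.97 (Atp6v0d2) to 0.17 (Cd36) on the x axis and from -1.01 (Selenop) to 0.46 (Cd9) on the y axis. Neil3 (5.75 and 5.87) and Mmp12, drawn as crosses, are in none of these lists.

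Macrophage transcripts made up a smaller share of the UMIs of members than of non-cycling nuclei, which were shallower. As counted, a member held a median of 26 and 22.5 UMIs of the macrophage identity list, against 25 and 20 in non-cycling nuclei. The 20 macrophage identity genes summed to 6079 CPM (6012 to 6147) against 8140.0 CPM in the AHRfl/fl-labelled library and to 4617 CPM (4547 to 4688) against 6197 CPM in the other, ratios of 0.747 and 0.745, and none of 19 compared in both libraries was called. Mertk was at 1127 and 1229 CPM against 1707 and 1911 CPM. Csf1r was at 327 and 338.5 against 462 and 462.0 CPM, Adgre1 (the surface protein F4/80) at 492 and 641 against 619 and 814 CPM. With free RNA subtracted, the list's log2 ratios were -0.52 and -0.46.

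The 2 macrophage programmes of this muscle differed in how far their share of UMIs was below that of non-cycling nuclei. As counted, the median UMIs per nucleus were not lower in members. They were 11 and 13 against 9 and 9 for the Mrc1 genes, and 34 and 32 against 28 and 28 for the Gpnmb genes. Mrc1 genes, which mark scavenging macrophages of the tissue, summed to 3730.3 and 2934 CPM against 4281 and 3177 CPM, ratios of 0.871 and 0.924. Mrc1 itself, the mannose receptor, was at 929.6 and 682 CPM against 894 and 578 CPM, and Maf at 690.3 and 529 against 765 and 534 CPM. Gpnmb genes, which handle lipid and lysosomal load, summed to 8250.2 and 8282 CPM against 10573 and 10054 CPM, ratios of 0.780 and 0.824. Gpnmb was at 1255 and 1100.5 against 1703 and 1499 CPM, Abca1 (a cholesterol exporter) at 753 and 1100.5 against 1069 and 1539 CPM, and Atp6v0d2 (a subunit of the lysosomal proton pump) at 67.7 and 76.4 against 133 and 119 CPM.

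Counted over nuclei thinned to 2000 UMIs, 35.4% (32.4 to 38.6) and 30.9% (27.1 to 34.9) of members held 3 or more UMIs of Mrc1, Cd163 and F13a1, against 32.2% and 22.9% of non-cycling nuclei and 0 of 584 and 0 of 320 cycling satellite nuclei. Gpnmb and Atp6v0d2 reached 3 UMIs in 38.3% (35.2 to 41.4) and 28.2% (24.5 to 32.1) of members, against 46.1% and 40.3% of non-cycling nuclei and 1.37% and 0.312% of cycling satellite nuclei. Of members, 9.09% and 5.71% held both. The highest doublet scores fell on 8.14% and 1.25% of members, and their part in the share with both was not tested. Unthinned, 53.6% and 50.4% of members passed for the Mrc1 genes (40.8% and 34.4% of non-cycling nuclei) and 60.1% and 55.7% for the Gpnmb genes (58.3% and 53.8%). The comparison of Gpnmb shares therefore turns with the depth of the nuclei. These classes are ranges cut from counts and not cell types.

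Members also varied in their place in the cycle. After thinning, mitosis UMIs outnumbered replication UMIs in 67.1% of members in the AHRfl/fl-labelled library and 60.5% in the other, and in 76.0% and 73.1% of cycling satellite nuclei. Of members, 26.8% and 24.1% held 6 or more mitosis UMIs and at least 3 times as many of them as replication UMIs. By the same limits, replication UMIs led in 4.23% and 6.07%. In non-cycling nuclei, mitosis UMIs outnumbered replication UMIs in 32.9% and 27.3%. By the limits above, mitosis led in 1.29% and 0.630% of them and replication in 4.87% and 7.97%. By these limits a lead of replication genes was not more frequent in members, but the selection of both sets bears on this. Non-cycling nuclei were chosen only by having 0 UMIs of the 5 cycling genes. As counted, they held up to 55 and 137 replication UMIs, and whether some of them were copying DNA was not tested. The replication shares are therefore not read as a comparison of dividing with resting nuclei. As counted, a member held a median of 21 and 30 replication UMIs and 37 and 47 mitosis UMIs, against 3 and 4, and 3 and 3, in non-cycling nuclei. The rule's cycling genes are themselves mostly genes of late S phase and mitosis. Free RNA held 947 and 730 CPM of the DNA synthesis list and 991 and 1002 CPM of the spindle and cytokinesis list. Its part in the counts per nucleus was not tested.

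Few monocyte, inflammatory, secreted and growth factor genes were compared in both libraries, 4, 5, 5 and 8, and 0 were called in both. Over all genes 4.36% were higher and 0.0435% lower in both. With so few genes compared, the absence of calls is not read as a result about these lists. Genes of recruited monocytes summed to 699.9 and 389.6 CPM in members against 946 and 492 CPM, and inflammatory mediators to 776 and 688 against 788 and 724 CPM. Receptors and regulators of macrophage growth and self-renewal, among them Csf1r and Maf, summed to 1726 and 1755 against 2053 and 1991 CPM.

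Cycling satellite nuclei and myoblasts (584 and 320 nuclei) stand beside members as dividing nuclei of another cell type. They held 3 or more UMIs of Pax7, Myf5, Myod1, Megf10 and Cdh15 and at most 1 UMI of the leukocyte genes. They met the same cycling threshold. Because of these limits, similar cell cycle levels and a difference in macrophage genes are in part set by the selection. Members had 1194 genes higher (15.0% of 7968) and 1067 lower (13.4%) than these nuclei in both libraries. Spindle and cytokinesis genes summed to 3678 and 5173 CPM in members and 5506 and 6199 CPM in cycling satellite nuclei, and DNA synthesis genes to 1762 and 2829 against 2143 and 2685 CPM. In the AHRmKO-labelled library the order turned for DNA synthesis genes with free RNA subtracted and for spindle genes after thinning. No cell cycle list differed 2-fold between these dividing cells as a sum. The macrophage identity list did, 4.64 and 26.7 times higher in members, with 20 of 20 and 19 of 19 genes called. Cycling satellite nuclei held 1309 and 172 CPM of the list and free RNA 11642 and 1887 CPM, and the part of free RNA in the satellite level was not tested.

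Leaving out the rule's genes, genes were ranked by the lower of their 2 ratios over cycling satellite nuclei. First was Ms4a14, a member of the MS4A family of membrane proteins, at 159 and 329 CPM against 2.25 and 5.56 CPM. Rbm47, an RNA-binding protein, was at 736 and 894 against 14.5 and 11.6 CPM. The others were Slc28a2 (a nucleoside transporter), Nlrp1b (an inflammasome sensor), Naip6 (of the NAIP family), Shisa9, Psd4 and Insyn2b. Insyn2b lies antisense within the rule gene Dock2, and reads of this pair cannot be told apart here since use of strand is not stated. All of these but Insyn2b differed little between members and non-cycling leukocyte nuclei, with log2 ratios of -0.35 to 0.37.

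Within members, the AHRmKO-labelled library was compared with the AHRfl/fl-labelled library gene by gene. Of 8243 genes, 187 (2.27%) were higher and 1193 (14.5%) lower in the AHRmKO-labelled library. In non-cycling leukocyte nuclei the shares were 2.42% higher and 13.9% lower of 7880 genes. Similar shares of genes thus differed between the libraries in leukocyte nuclei that were not cycling.

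The sums of the 10 cell cycle lists in members were 1.04 to 1.61 times as high in the AHRmKO-labelled library, with cyclins and their kinases at 1.04 and the anaphase promoting complex at 1.07 (log2 interval -0.00027 to 0.19). DNA synthesis genes were 1.61 times as high with 6 of 25 called higher, among them Pole (49.8 to 110.2 CPM), Dnmt1 (79.3 to 174 CPM) and Atad2. Repair genes were 1.52 times as high, with 1 of 17 called higher, Brca2 (54.5 to 166 CPM; log2 ratio 1.59, 1.39 to 1.81). Licensing genes were 1.45 times as high with 1 of 15 called higher, Cdc45. Spindle and cytokinesis genes were 1.41 times as high with 2 of 29 called, Kif20b and Aspm (137 to 290.8 CPM), and kinetochore genes 1.39 times with Sgo2a called of 23. Of 17 cyclins and kinases compared, 3 were called higher and 1 lower. In the transcription factor, mitotic kinase, condensation and anaphase promoting complex lists 0 were called. Over all genes 2.27% were higher, and 1 or 2 called genes are not read as a result about a list. In non-cycling nuclei, the DNA synthesis list was 1.27, the repair list 1.25 and the licensing list 0.945 times as high. Free RNA of the AHRfl/fl-labelled library and of the other held 327 and 689 CPM of the repair list. It held 947 and 730 CPM of the DNA synthesis list and 341 and 217 CPM of the licensing list. In cycling satellite nuclei, licensing genes were 1.22, DNA synthesis genes 1.25, repair genes 0.993, kinetochore genes 1.18 and spindle genes 1.13 times as high. The median number of UMIs of the 5 rule genes, not corrected for depth, was 10 in members of the AHRfl/fl-labelled library and 15 in the other. Members were chosen on these genes, so this is a description of the selection and not a further result.

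Early response genes, which are induced quickly after a stimulus, were at 515 CPM (495 to 535) and 1453 CPM (1414 to 1493), 2.82 times as high in the AHRmKO-labelled library, with 7 of 13 called higher. Fosb had 32 UMIs (6.28 CPM) and 456 UMIs (127 CPM), with a log2 ratio of 4.23 (3.82 to 4.90), and Fos at 25.5 and 280.5 CPM, a log2 ratio of 3.43 (3.19 to 3.73). Dusp1, a phosphatase of MAP kinases, was at 73.8 and 250.5 CPM, and Klf6 at 110.2 and 298.5 CPM. In non-cycling leukocyte nuclei the list was 3.02 times as high and in cycling satellite nuclei 3.03 times, so its level was higher in all 3 kinds of nuclei. In free RNA, it stood at 796 and 853 CPM.

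Of the remaining genes that ranked highest in the AHRmKO-labelled library, Fat3, an atypical cadherin, was at 23.7 and 104 CPM and held by 5.29% and 10.7% of members, and its log2 ratio was 2.11 in members and 1.14 in non-cycling nuclei. Lars2, the mitochondrial leucyl-tRNA synthetase, was at 145 and 584 CPM in members and at 503 and 3780.4 CPM in free RNA. Of 19 Gpnmb list genes compared, 1 was higher and 3 lower (Spp1, Fabp5 and Ctsd), and the list summed to 8250.2 and 8282 CPM. Of 11 Mrc1 list genes, 1 was higher and 3 lower (F13a1, Pf4 and Selenop), and the sum was 0.787 times as high. Over all genes 2.27% were higher and 14.5% lower, so the Gpnmb list's share of lower genes was near that of all genes, and with so few genes the Mrc1 list's count is not read as a result about the list. Cd36, a scavenger receptor for fatty acids and the Gpnmb list gene called higher, was at 257 and 740.1 CPM (log2 ratio 1.52, 1.43 to 1.62; non-cycling 1.45). Stab1, a scavenger receptor and the Mrc1 list gene called higher, was at 337 and 740.4 CPM (1.13, 1.05 to 1.22; non-cycling 0.99). Cep295nl, Eid3, Jund, Naa80 and Ranbp6 had log2 ratios of 1.76 to 2.66.

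With free RNA subtracted, 810 genes were lower in the AHRmKO-labelled library in place of 1193, and 273 were higher in place of 187. Oxidative phosphorylation genes of the nucleus summed to 2221 and 818 CPM in members, with 21 of 28 called lower, and to 11593 and 1527 CPM in free RNA. With free RNA subtracted, the log2 ratio of this list went from -1.44 to 0.22, and that of glycolysis genes from -0.43 to 0.46. Macrophage identity genes were 0.760 times as high, with 7 of 20 called lower, among them Lyz2 (722 and 111 CPM; free RNA 2779 and 285 CPM) and C1qa, a complement subunit (215 and 27.8 CPM; free RNA 699 and 38.3 CPM), and the list's log2 ratio went from -0.40 to -0.05. Not all genes of this list were lower. Mertk and Adgre1, whose levels are given above, were higher without being called, and Csf1r had a log2 ratio of 0.05. Over all genes, 14.5% were called lower in members of the AHRmKO-labelled library. Spp1 (osteopontin) was at 1190.7 and 306 CPM in members and at 4432 and 480.3 CPM in free RNA.

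The lowest named genes in the AHRmKO-labelled library were of 2 kinds. Ube4bos1, Tg, Ccdc152, Flrt1 and Kcnj13 each lie antisense to a gene on the other strand (Ube4b, Sla, Selenop, Macrod1 and Gigyf2), and reads of each pair cannot be told apart. Ube4bos1 had 114 UMIs in members of the AHRfl/fl-labelled library and 0 in the other. Of the other kind, Ccl8, a chemokine, had 235 and 2 UMIs (log2 ratio -5.46, -9.43 to -4.51), Mymx, the fusion protein myomixer of myoblasts, 148 and 3 (-4.47, -7.42 to -3.55), and Gal, the neuropeptide galanin, 146 and 3 (-4.45, -7.40 to -3.53). Cardiac actin Actc1 was at 194.6 and 8.33 CPM in members. These 4 genes were at 211 to 1699 CPM in free RNA of the AHRfl/fl-labelled library and at 7.16 to 89.8 CPM in that of the other. With free RNA subtracted, the log2 ratios of Mymx, Gal and Actc1 were no longer below 0, as given in the last section. Tnc, a matrix protein, was at 49.8 CPM and 1.94 CPM (7 UMIs).

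Of 11 cell cycle inhibitors and arrest genes compared, Cdkn1a and Cdkn1c were lower in the AHRmKO-labelled library and 0 were higher, a share lower near the 14.5% of all genes. Cdkn1a, which encodes p21, was at 66.7 and 22.2 CPM in members, a log2 ratio of -1.56 that became 1.17 with free RNA subtracted. Cdkn1c was at 88.7 and 12.2 CPM in members and at 784 and 55.8 CPM in free RNA. Ccnd1 was at 32.4 and 13.3 CPM. F13a1, the coagulation factor subunit of the Mrc1 list, was at 757 and 308 CPM in members with 212 and 159 CPM in free RNA (log2 ratio -1.30; non-cycling -1.42).

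**Figure D4:**
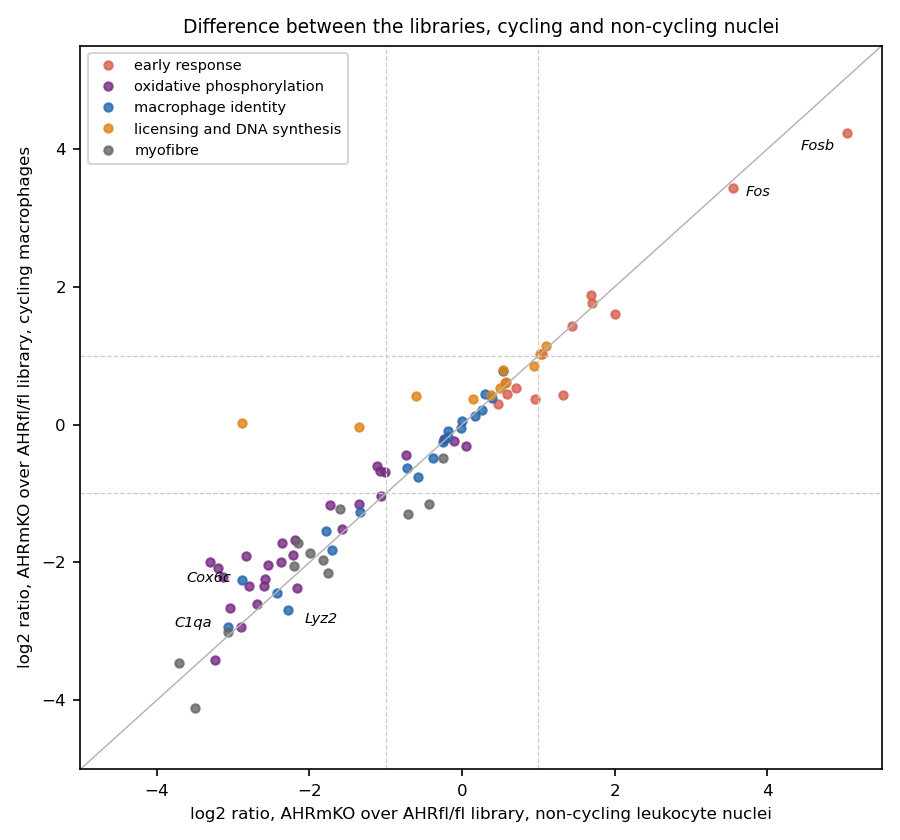
Each point is a gene of 5 kinds of list, with the log2 ratio of the AHRmKO-labelled library over AHRfl/fl in non-cycling leukocyte nuclei on the x axis and in cycling macrophages on the y axis; dashed lines mark a 2-fold ratio. Most points lie near the line of equal ratios, from C1qa (-2.93 in members) to Fosb (4.23).

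Markers of other cells were present in members at levels that differed between the libraries. The 16 T and NK cell genes summed to 78.1 CPM (70.6 to 86.1) in the AHRfl/fl-labelled library, where Cd3d was at 0, and to 7.50 CPM (4.94 to 10.9) in the other, where 9 genes, among them Cd3e, Cd3g, Themis and Trac, were at 0. In the first library 26 members (2.75%) held 3 or more UMIs of these genes, against 0.643% of non-cycling nuclei. In the other 1 member did, against 0.735% of non-cycling nuclei. Thinned, the shares were 0.951% against 0.297% in the first library and 0 of 560 (up to 0.657%) against 0.630% in the other. The 16 dendritic cell genes, which include class II genes of macrophages, summed to 408 and 279.6 CPM, lower than the 585 and 402 CPM of non-cycling nuclei, and Xcr1, Cd209a and Ccr7 were at 0 in the AHRmKO-labelled library. The 8 B cell genes summed to 274 and 106 CPM, of which Ebf1, also a gene of stromal cells, gave 232 and 85.3 CPM. Cpa3, a mast cell protease, had 39 UMIs in 1 of the 560 members of the AHRmKO-labelled library.

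Of muscle cells, the 11 satellite cell and myoblast genes summed to 417 and 134 CPM in members, 390.1 and 95.1 CPM in non-cycling nuclei, 2398 and 2098 CPM in cycling satellite nuclei and 1738 and 704 CPM in free RNA, and Chrdl2 was at 0 in members. In the AHRfl/fl-labelled library 62 members (6.55%) held 3 or more UMIs of Myf5, Myod1, Megf10 and Cdh15, and in the other 6 (1.07%), against 2.55% and 0.210% of non-cycling nuclei. Thinned to 2000 UMIs, 4 of 946 (0.423%) and 0 of 560 members (interval up to 0.657%) did, against 0.470% and 0 of 953 non-cycling nuclei (up to 0.386%). Fibroadipogenic progenitor genes summed to 989.9 and 190.5 CPM in members and 4560.0 and 1331 CPM in free RNA, and myofibre genes to 1755 and 397 CPM in members and 11903 and 3648 CPM in free RNA. Neutrophil genes were at 84.9 and 160.5 CPM, erythroid genes at 154 and 90.5 CPM, and endothelial genes at 161 and 99.97 CPM. A stricter limit left out every leukocyte nucleus with 1 or more UMIs of Myf5, Myod1, Megf10 and Cdh15 together, or with 3 or more UMIs over the T and NK cell genes, the B cell genes without Ebf1, and Flt3, Zbtb46, Xcr1, Clec9a, Siglech, Cd209a and Ccr7 of the dendritic cell list together. It left 526 and 471 members, and the cycling share was 12.1% and 26.3%. Without these nuclei, 343 genes were higher and 8 lower in members than in non-cycling nuclei in both libraries, 1248 higher and 1172 lower than in cycling satellite nuclei, and 197 higher and 1112 lower in the AHRmKO-labelled library.

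**Figure D5:**
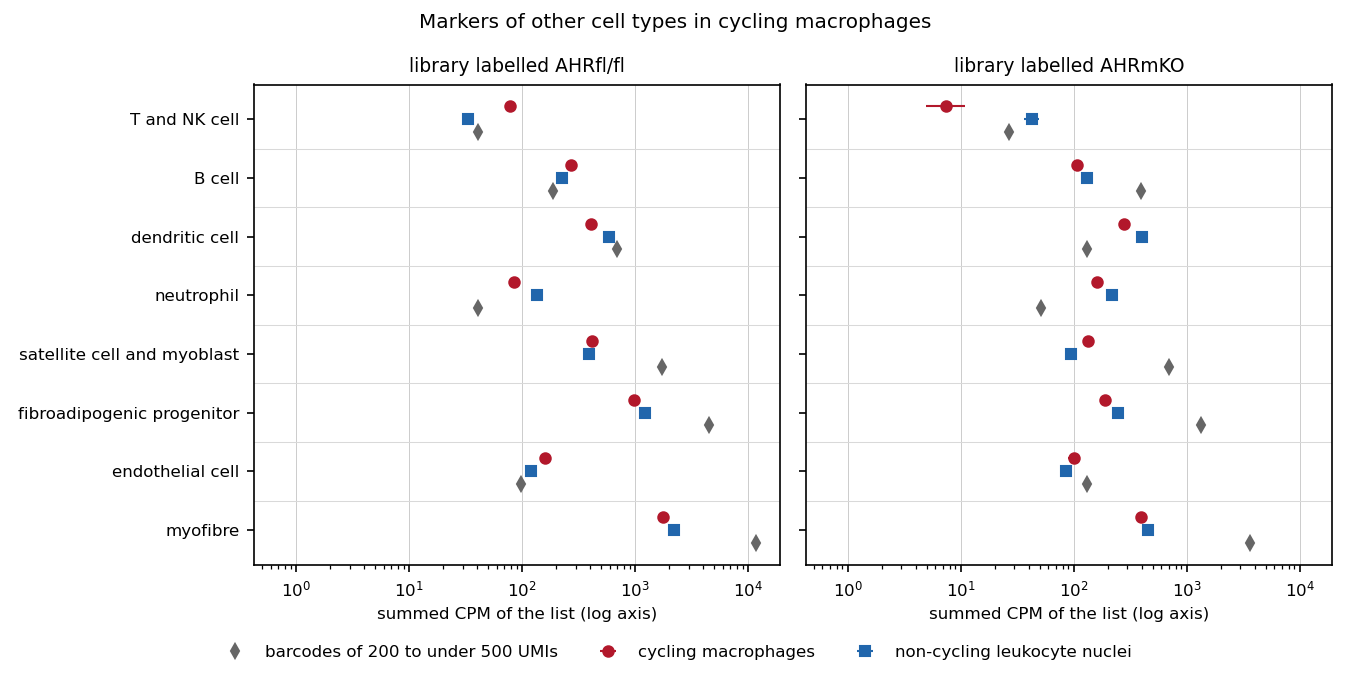
Summed CPM on a log axis of marker lists of other cell types in cycling macrophages and non-cycling leukocyte nuclei, with exact Poisson intervals, and in barcodes of 200 to under 500 UMIs, for the AHRfl/fl-labelled library (left) and AHRmKO (right). T and NK cell genes lie above non-cycling nuclei in the first library (78.1 against 33.1 CPM) and below them in the other (7.50 against 42.9 CPM).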

How the data were processed

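The deposited values are whole-number UMI counts of 32285 genes in every barcode, before any selection of nuclei. Reads were processed with Cell Ranger 7.0.1 on mm10, per the submitters' processing notes. The annotation, the use of intronic reads and the use of strand are not given in the sources used here. The nuclei were selected by fixed rules on counts, without clustering. Counts were summed over nuclei per library and given as CPM of the sum with exact Poisson intervals, shares with exact Clopper-Pearson intervals, and log2 ratios with 0.5 CPM added to both sides, which understates the difference of low genes, and an exact conditional binomial interval, all at 95%. UMIs are single molecules, and intervals cover counting error only. Levels in CPM were compared for the same gene or list and not between genes. The UMIs of replication and mitosis genes within a nucleus were set against each other without regard to gene length. Summed UMIs of members came to 5097690 in the AHRfl/fl-labelled library and 3600939 in the other.

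Doublets were scored with Scrublet in scanpy 1.11.5, with the top 0.4% per 1000 nuclei as the highest scores, and kept. Free RNA was profiled in barcodes of 200 to under 500 UMIs. Its subtraction, as an alternative, was scaled by myofibre genes. Thinning drew 2000 UMIs per nucleus with a fixed seed. The work ran in Python 3.11.15 with numpy 2.4.6, scipy 1.17.1, pandas 2.3.3 and matplotlib 3.10.9, and the comparison was tested on simulated data. Gene positions and antisense neighbours came from a GRCm38 annotation, and promoters from RefSeq.

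Named genes were the 12 highest and 8 lowest ratios of members over non-cycling nuclei called in both libraries (of the latter, only 3 existed), the 8 highest over cycling satellite nuclei, the 10 highest and 10 lowest between the libraries, and the 4 of each list with the most UMIs. Ahr, Csf1r, Mrc1, Gpnmb, Maf, Myc, Ccnd1 and Cdkn1a were always named. Some single-gene values that these rules would name are not reported here. Rule, mitochondrial and haemoglobin genes and unnamed gene models were left out. Further list genes given as examples were chosen after their values were seen. The members and lists were chosen with earlier results of these data known. Alternatives covered the UMI minimum, the cycling threshold, thinning, doublets, free RNA, the pseudocount, the filter on low genes, centring, the weight of nuclei, the non-cycling set and, chosen after seeing the data, nuclei with markers of other cell types.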

Additional observations from a re-analysis of the deposited data

Results flagged for a closer look

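For 2 marker lists the ratio of cycling macrophages over non-cycling leukocyte nuclei pointed in opposite directions in the 2 libraries, each with a counting interval that left out 0. The T and NK cell list had a log2 ratio of 1.22 in the AHRfl/fl-labelled library and -2.44 in the AHRmKO-labelled library. The B cell list had a log2 ratio of 0.28 in the first and -0.30 in the other. Each library is a single sample, and the difference between them was not tested.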

How the results depend on the processing

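No paired analysis was possible because each group has 1 library. For the same reason no replicate could be left out. Over 1463 alternative values of the 140 ratios that were called (genes) or whose counting interval left out 0 (lists), 1449 kept their direction, and ratios that met neither were not counted. Among the 140 were cell cycle ratios over nuclei chosen without cycling UMIs, and genes picked for their extreme ratios. The direction of these was in part set by the selection, so the count does not measure how stable the results are. The cycling share of leukocyte nuclei, in the AHRfl/fl-labelled library and then the other, was 21.7% and 34.5% with 3000 or more UMIs, 10.4% and 22.2% with at least 5 UMIs of the cycling genes and 9.89% and 19.8% thinned. Without nuclei that carried markers of other cell types it was 12.1% in the AHRfl/fl-labelled library, with 526 nuclei.

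The 3 genes lower in members in both libraries became 10 with at least 5 cycling UMIs, 18 thinned, 14 without the filter on low genes, 7 by the mean over nuclei, 10 with free RNA subtracted and 8 without nuclei with other markers. Without the filter, 462 genes were higher in members, 1889 lower than in cycling satellite nuclei, and 397 higher and 3290 lower in the AHRmKO-labelled library. The count higher in that library was 436 thinned and 324 by the mean over nuclei.

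With free RNA subtracted, the log2 ratio between the libraries in members turned to 0.22 for oxidative phosphorylation, 0.46 for glycolysis and 1.17 for Cdkn1a. It became 0.16 for Gal, 0.00 for Actc1 and Mymx, and -0.0014 for cyclins. Subtraction stopped at 0 UMIs, and with 0.5 CPM added a gene with no counts left in both libraries has a log2 ratio of 0.00. The values of Actc1 and Mymx are therefore not read as equal levels. The DNA synthesis list over cycling satellite nuclei in the AHRmKO-labelled library went to -0.14. Thinned, the spindle list there was 0.041. The satellite list over non-cycling nuclei went to -0.019 in the AHRfl/fl-labelled library without the highest doublet scores. Without nuclei with other markers it went to -0.038 and -0.065, and the T and NK list to -0.40 and 0.034. These nuclei were left out on the genes of both lists. The causes of the other changes were not tested. Depth limits genes under 20 CPM, which were not compared.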
